A study of Ovis aries and Bos taurus with 10 samples.

Results

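The nucleolus is the part of the nucleus in which ribosomes are made. RNA polymerase I transcribes the ribosomal RNA (rRNA) precursor there, small nucleolar ribonucleoproteins modify it, and separate sets of assembly factors then build the small and the large ribosomal subunit. The RNA exosome, a ring of subunits with attached nucleases, trims rRNA precursors and degrades many other nuclear RNAs. A growing oocyte stores ribosomes for the embryo, and the granulosa cells (GC) around it divide, so both follicular compartments make ribosomes.

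The genes described here were chosen by symbol from the bovine chip annotation: RNA polymerase I subunits (POLR1), the NOP, UTP, RRP and NOL genes, GNL2 and GNL3, IMP3 and IMP4, the exosome subunits (EXOSC) and 15 further genes named singly. This gave 56 of the 9155 genes with a symbol on the array. They comprise 8 genes of RNA polymerase I, 2 of the box C/D and 4 of the box H/ACA small nucleolar ribonucleoproteins, 20 of small subunit assembly, 8 of large subunit assembly, 8 exosome subunits and 6 others. Of the 15 genes named singly, NPM1, BOP1, WDR12 and NIP7 had no probe set, and 11 were measured. NOL3 was selected by its symbol only, since its protein represses cell death. The 56 genes were measured by 86 probe sets, and the probe set with the highest mean signal on the captured arrays stood for each gene.

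The series holds 10 Affymetrix Bovine Genome Arrays, 1 for each condition. Laser capture microdissection (LCM) took oocytes and GC of primordial, primary and secondary follicles from frozen ovary sections of newborn lambs under 1 day old, with PD, PM and SEC for the stage and O or G for the compartment in the array names (PDO, PMO, SECO, PDG, PMG, SECG). Each held RNA pooled from 2 animals at the primordial and secondary stages and from 4 at the primary stage, amplified in 2 rounds and labelled with the Arcturus turbo kit. The 4 other arrays were of whole fetal ovary, an ovine one at 132 days post coitum labelled by 3 protocols (P1 with 1 round of amplification, P2 with 2 rounds and Affymetrix labelling, P3 with 2 rounds and Arcturus labelling) and a bovine one at 8 months labelled by P1. The labels give no genotype or treatment for any group. Every sheep RNA was hybridized to probes designed on bovine sequence, so a weak signal can be a poor probe match as well as a rare transcript, and signals of different genes are not compared. The values are MAS 5.0 signal intensities with a trimmed mean of 100 on each array.

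A gene was called detected on an array when its signal ranked high enough on that array to fall within the share of probe sets the study called present. The lowest signal called detected ranged from 45.8 (PDG) to 74.2 (PMO) on the captured arrays. Markers of other cells were detected on every captured array, among them 7 of 9 oocyte markers on each GC array. The summed signal of 9 oocyte markers was 7759 on PDO, 7940 on PMO and only 2793 on SECO, against 3057, 5680 and 3476 on PDG, PMG and SECG, so at the secondary stage it was lower in the array labelled oocyte. GC markers (9 genes) summed to 236, 551 and 755 in oocytes and to 765, 1066 and 2015 in GC, each time in the order primordial, primary, secondary. Only 2 to 4 of these 9 were detected on a captured array. Stroma markers (5 genes, collagens among them) summed to 15731, 4316 and 15645 in oocytes and to 46999, 29415 and 12645 in GC, and 4 or 5 of them were detected on each captured array. The PDG sum exceeded that of every whole fetal ovary array (34710 to 41691). Red blood cell markers (4 genes) summed to 4460 on SECO and to 67.8 to 796 on the other captured arrays. Counts and medians of the oocyte and GC comparison are given with and without SECO for whole gene lists, but not by role. Without SECO, SECG has no partner, so mean differences rest on the primordial and primary pairs. Counts of groups without overlap still use SECG. Stage differences are also given in GC alone.

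Nucleolar and exosome genes were widely detected in both compartments. Of the 56, 28 (50%) were detected on all 6 captured arrays, against 34.8% of all genes, and 12 (21.4%) on none, against 31.4%. Between 32 (PMG) and 39 (SECO) were detected on a single captured array, which is 57.1% to 69.6% of them. Across all genes the single captured arrays lay between 46.5% and 55.2%. On the bovine fetal ovary array, where probes and RNA are of one species, 54 of the 56 (96.4%) were detected, against 73.1% of all genes, and on the ovine P1 array 44. The 12 genes not detected in captured cells were IMP3, NOL10, NOP14, UTP6, UTP15 and UTP25 of the small subunit, NOP10, POLR1F, RRP1, RRP15, NOL8 and NOL3. All of them but POLR1F and NOP10 were detected on the bovine array.

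The question put to the captured arrays was which transcripts differ between the oocyte and its GC. No member differed by the test. In the linear model of limma, fitted to log2(signal + 20) of 11642 probe sets with the stage as a second term, 0 of them (0%) passed an adjusted p of 0.05, and the smallest adjusted p among the 44 members tested was 0.406. At an unadjusted p under 0.05 stood 6 of the 44 members and 1295 (11.1%) of all probe sets tested. No condition was hybridized more than once, so the stages of a compartment stood in for replicates (n = 3). Differences are given as oocyte minus GC on this log2 scale with limma's moderated standard error (SE), which borrows from the spread of all probe sets and can be larger or smaller than the spread of a gene's own 3 stage pairs. In these pooled captures fewer cells of a type and less RNA per cell cannot be told apart.

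Most members nevertheless had the higher signal in oocytes. The mean difference was above 0 for 46 of the 56 genes (82.1%), against 54.6% of all genes, and its median was 0.23 against 0.05. Without SECO, which leaves the primordial and primary pairs, it was above 0 for 41 (73.2%, against 52.1%) with a median of 0.35 against 0.03. With a constant of 50 added to the signals in place of 20 the median over all 3 stages was 0.14. By stage the median was 0.39 for primordial, 0.35 for primary and 0.06 for secondary follicles, against 0.04, 0.02 and 0.06 for all genes. The shift was seen at the first 2 stages, where the oocyte marker sum was also higher in oocytes than in GC and the stroma sum lower, and not at the secondary stage, where both sums had the opposite order. The part of these marker differences in the shift was not tested. By detection, the mean difference was above 0 for 21 of the 28 members detected on all 6 captured arrays. That is 75%, against 55.3% of all genes so detected, and the median was 0.16 against 0.06. The count was 15 of 16 (93.8%, against 52.2%) for members detected on 1 to 5 arrays. For those detected on none it was 10 of 12 (83.3%, against 56.5%). All 3 oocyte signals lay above all 3 GC signals for 9 members (16.1%, against 7.56% of all genes): EXOSC2, FBL, GNL2, NOL11, NOP2, POLR1D, POLR1F, RRP36 and UTP4. The reverse held for 2, EXOSC3 and LAS1L (3.57%, against 6.08%). Without SECO the counts were 17 (30.4%, against 16.5% of all genes) and 3 (5.36%, against 12.8%). The genes that joined when SECO was left out were EXOSC1, EXOSC8, EXOSC9, EXOSC10, UTP3, UTP11, UTP15 and UTP18 on the oocyte side and IMP3 on the GC side.

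**Figure D1:**
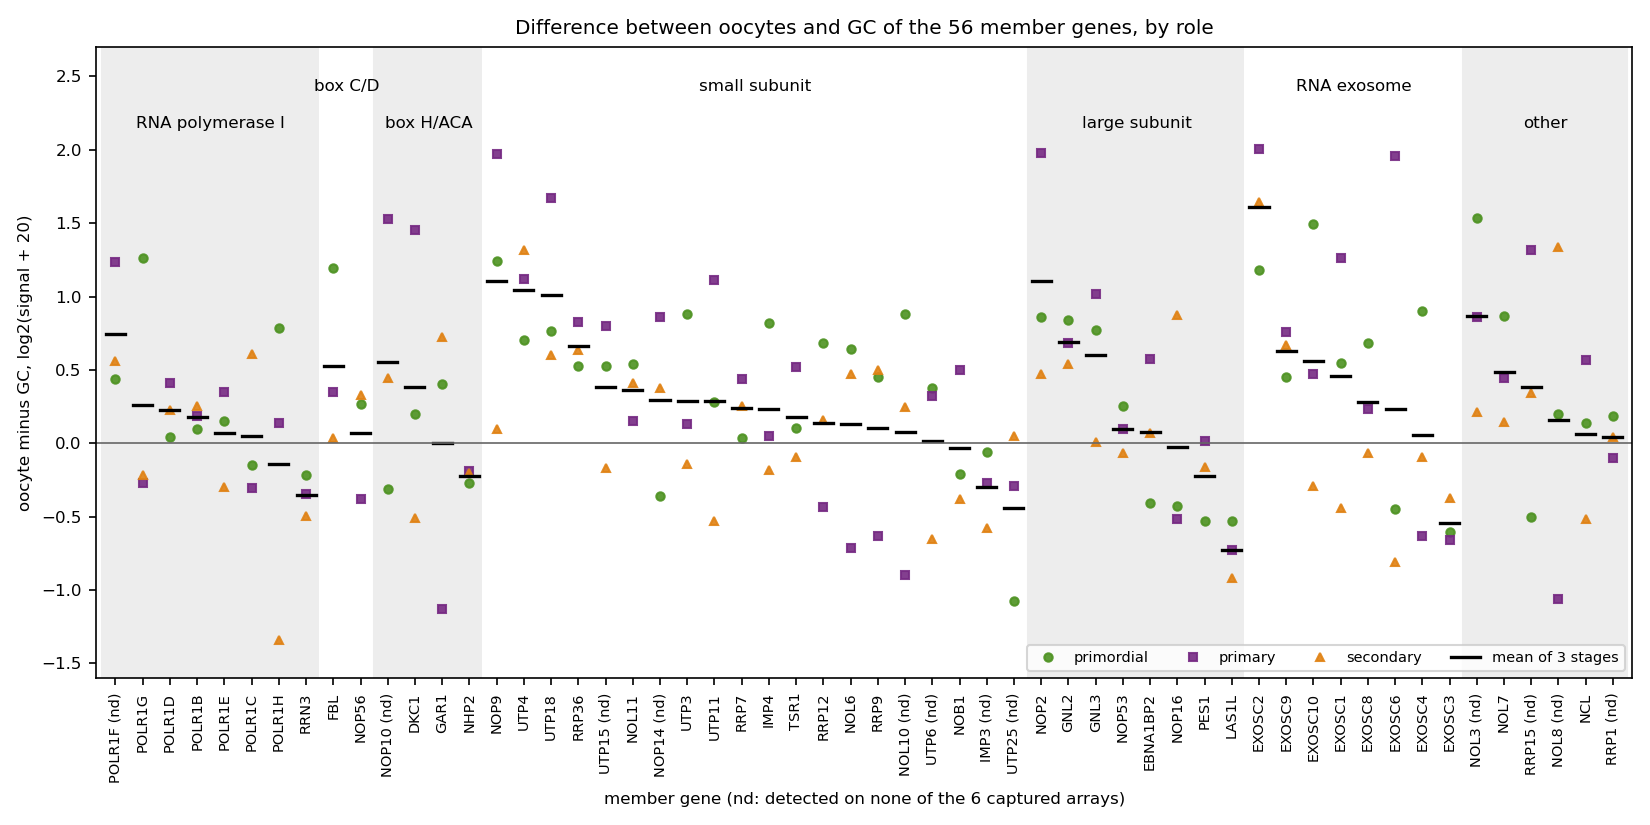
Oocyte minus GC difference of log2(signal + 20) for each of the 56 genes, grouped by role and ordered by the mean within a role. The circle, square and triangle are the primordial, primary and secondary pair of arrays and the bar is their mean. Most bars lie above 0, UTP4 and GNL2 have all 3 points above 0, and LAS1L and EXOSC3 have all 3 points below 0.

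Other genes of ribosome making gave a smaller shift. The list held 64 further genes of the pathway, such as helicases, export factors and exosome cofactors. Of these, 41 (64.1%, against 54.6% of all genes) were higher in oocytes, with a median of 0.08 against 0.05. In 10 (15.6%, against 7.56%) all oocyte signals exceeded all GC signals, while in 2 (3.12%, against 6.08%) the reverse held. Among the 10 was EIF6, which keeps the large subunit from joining the small one too early, with signals of 1049, 892 and 982 in primordial, primary and secondary oocytes and 737, 572 and 573 in GC. Also among them was DDX21, a nucleolar helicase, at 111, 83.4 and 105 and 53.2, 37.8 and 53.4. XPO1, the export receptor that carries both subunits out of the nucleus, was 1 of the 2 on the GC side, with 2871, 2984 and 3407 in oocytes against 3496, 5608 and 3889.7 in GC. These 3 were chosen after their values were seen. Of the 64 genes 52 were tested, and 0 passed. Of 67 cytosolic ribosomal protein genes 36 (53.7%) were higher in oocytes with a median of 0.01, and of 67 mitochondrial ribosomal protein genes 48 (71.6%) with a median of 0.31. Without SECO the share higher in oocytes was 59.4% (median 0.13) for the 64 pathway genes. It was 35.8% (-0.05) for the cytosolic and 73.1% (0.37) for the mitochondrial list. The members then stood at 73.2% (0.35) and all genes at 52.1% (0.03), so the mitochondrial list and the members were alike. These lists were not tested against each other.

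**Figure D2:**
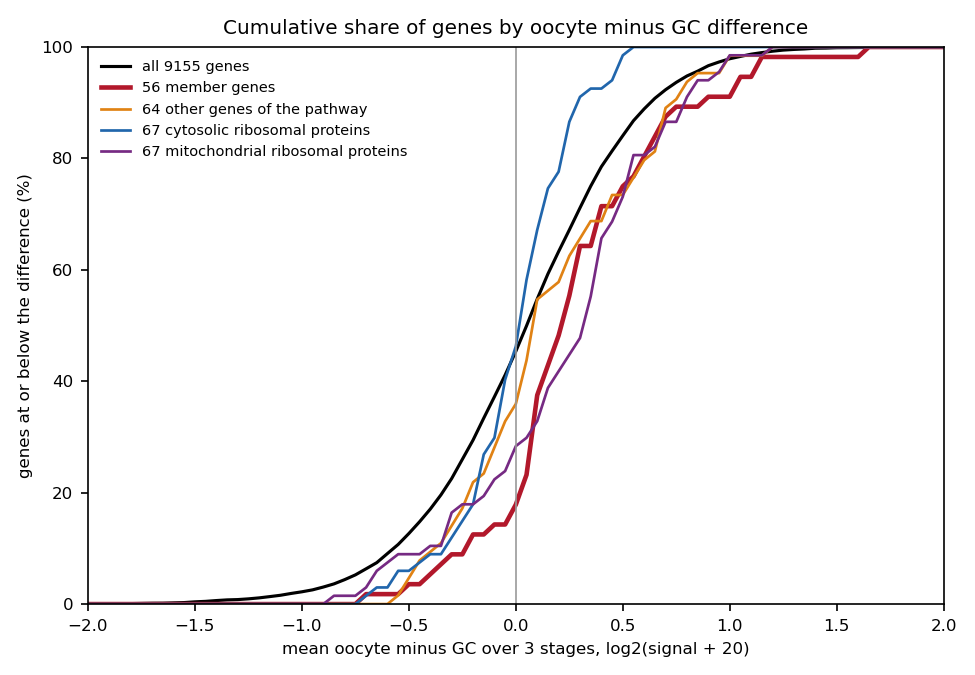
Cumulative share of genes (%) by their mean oocyte minus GC difference in log2(signal + 20). The curve of the 56 nucleolar and exosome genes crosses 0 at 17.9%, that of all 9155 genes at 45.4%, and that of mitochondrial ribosomal proteins at 28.4%. At 0.3 the mitochondrial curve (47.8%) lies below that of the members (64.3%).

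Of the 8 genes of RNA polymerase I and its initiation, 6 (75%, against 54.6% of all genes) were higher in oocytes. Their median difference was 0.12, against 0.05, and at the secondary stage 4 (50%, against 54.2%) were higher. POLR1D, a subunit that polymerase I shares with polymerase III, had signals of 950.5, 1052 and 962 in primordial, primary and secondary oocytes and 921, 785 and 818 in GC. Its groups do not overlap, but the difference was only 0.23 ± 0.30 (SE). POLR1C, its partner in both enzymes, had 279, 189.8 and 449 and 311, 239 and 288, which overlap. POLR1B, the second largest subunit, lay within a narrow band, at 128, 85.6 and 157 in oocytes and 119, 72.8 and 129 in GC, detected on all 6 arrays. RRN3, which brings polymerase I to the rRNA promoter, was the member of this role that was lower in oocytes at every stage. Its signals were 58.9, 119 and 77.7 in oocytes and 71.7, 157 and 118 in GC, a difference of -0.35 ± 0.30 with an adjusted p of 0.682. The stages overlap between the compartments, and a second probe set for RRN3 that was detected on no captured array had the opposite sign.

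POLR1H, a small polymerase I subunit that helps the enzyme cut back its transcript, differed in order between stages. Its signals were 1295, 615 and 215 in oocytes and 742, 557 and 577 in GC, so oocytes were higher at the primordial and lower at the secondary stage. POLR1G and POLR1E were near the limit of detection, POLR1G detected on PMG and SECG and POLR1E on PMO among the captured arrays. POLR1F was detected on no array of the series, so its place among the 9 non-overlapping genes rests on undetected signals of 0.981 to 29.7.

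Fibrillarin (FBL), the methyltransferase of the box C/D particles and the usual marker of the nucleolus, was higher in oocytes at the primordial stage. Signals were 941, 548 and 503 in oocytes and 399, 426 and 491 in GC. All oocyte signals exceeded all GC signals, but the primordial pair differed most, with stage differences of 1.20, 0.35 and 0.03 around a mean of 0.53 ± 0.35 (adjusted p = 0.586). Without the primordial stage the mean was 0.19. NOP56, a scaffold protein of the same particles, had signals of 1954, 1292 and 2617 in oocytes against 1619.8, 1687 and 2081 in GC. These values overlap, and the difference was 0.07 ± 0.32. The order of the compartments was reversed at the primary stage, where GC were higher.

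In the box H/ACA particles, which convert uridine to pseudouridine in rRNA, no gene was set apart. NHP2, a core protein, was lower in oocytes at all 3 stages, with 135, 188 and 69.1 against 167, 217 and 82.4 in GC and a difference of -0.22 ± 0.30 around stage differences of -0.27, -0.19 and -0.20. Dyskerin (DKC1), the pseudouridine synthase itself, was detected only on SECO and SECG, at 70.8 and 109. GAR1 was detected on PDO and SECO and on no GC array, but its GC signal of 67.6 on PMG exceeded 2 of the 3 oocyte signals.

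In small subunit assembly 17 of 20 genes (85%, against 54.6% of all genes) were higher in oocytes, with a median difference of 0.24 against 0.05. Of the 20, 6 were detected on no captured array, and at the secondary stage 12 (60%, against 54.2%) were higher in oocytes. UTP4, a protein of the first complex to bind the growing rRNA precursor, had signals of 203, 260.3 and 185 in oocytes against 116, 109 and 62.3 in GC. The groups do not overlap, and at 1.05 ± 0.31 with an adjusted p of 0.406 this was the largest mean difference among members detected on all 6 arrays. NOL11, a partner of UTP4, was detected on PDO and SECO and on no GC array. Its signals were 58.6, 54.6 and 69.1 and 34.2, 47.3 and 46.9 (adjusted p = 0.672). Since PMO did not detect it either, no fold is given.

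UTP18, of a second complex of the early particle, was brighter in oocytes at each stage, with 1063, 1284 and 556 against 618, 390.4 and 359 in GC. The difference of 1.01 ± 0.34 (adjusted p = 0.414) was largest at the primary stage, and the secondary oocyte signal lay below that of primordial GC. RRP36, which acts in the early cuts of the precursor, had 92.4, 144 and 84.6 in oocytes against 58.2, 72.6 and 47.3 in GC, without overlap, and a difference of 0.66 ± 0.30 (adjusted p = 0.463). NOP9, an RNA-binding factor of the small subunit, was detected in all oocytes and only on SECG among GC, with 67.8, 111 and 79.2 and 17.2, 13.5 and 72.9. Its mean difference of 1.10 ± 0.41 (adjusted p = 0.42) was 1.24, 1.97 and 0.09 by stage, so hardly any remained at the secondary stage. It was 0.67 without the primary stage and 0.26 with all probe sets of the gene averaged.

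The remaining small subunit genes were mixed. UTP3, UTP11 and IMP4, early assembly factors, were higher in oocytes at the first 2 stages and lower at the secondary stage. UTP3, for example, had 693, 562 and 335 in oocytes against 368, 511 and 371 in GC. NOB1, the nuclease that makes the last cut of the small subunit rRNA, was detected everywhere, at 70.8, 117 and 110.5 and 84.98, 77.2 and 149.7, with no common direction. RRP7, RRP9, RRP12, NOL6 and TSR1 had mean differences of 0.11 to 0.24.

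Large subunit assembly contained members in both directions. NOP2, a methyltransferase of the large subunit rRNA, was detected on all 3 oocyte arrays and on no GC array. Its signals were 75.7, 83.4 and 75.5 in oocytes and 32.7, 6.25 and 49.00 in GC, so the oocyte signal was at least 1.31-fold that of GC with GC at their limits (adjusted p = 0.414). Its mean difference was 1.10 ± 0.38, 0.66 without the primary stage and 0.61 with all its probe sets averaged. GNL2, a nucleolar GTPase that prepares the large subunit for export, had 1190.1, 1362 and 1343 in oocytes against 656, 841 and 916 in GC. The groups do not overlap, and the 3 stage differences of 0.84, 0.68 and 0.54 lie close together around 0.69 ± 0.30 (adjusted p = 0.453). GNL3 (nucleostemin), its relative, was detected on PDO, PMO and SECG only, at 53.7, 116 and 62.5.

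LAS1L, which takes part in removing the internal spacer ahead of the large subunit rRNA, was the member with the largest GC excess among those detected on a captured array. Signals were 169, 186 and 205 in oocytes and 254, 320.4 and 406 in GC, with every GC signal above every oocyte signal. The stage differences were -0.53, -0.73 and -0.92, the mean -0.73 ± 0.30 and the adjusted p 0.441. The study's own array calls placed LAS1L in GC only, whereas the rank rule used here detected it on all 6 captured arrays. By quantitative PCR the study also reported a higher level in GC. The other large subunit genes did not separate the compartments. EBNA1BP2 had 728, 1016 and 746 in oocytes against 970.4, 677 and 709 in GC, and NOP16 171, 146 and 185 and 237, 217 and 92.3. PES1 was detected on all captured arrays but PDO, with a mean difference of -0.22 ± 0.31.

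The RNA exosome split by subunit. Of its 8 genes 6 (75%) were higher in oocytes at the primordial stage, against 52.6% of all genes, and 6 at the primary stage, against 51.4%. At the secondary stage, which rests on SECO, it was 2 (25%), against 54.2%. The median difference over the 3 stages was 0.37, against 0.05 for all genes. EXOSC2, a cap subunit that binds RNA at the entry of the ring, had signals of 46.2, 87.8 and 72.6 in oocytes and 9.19, 6.83 and 9.65 in GC. It was detected on PMO and SECO but not on PDO or on any GC array, so no fold is given. Its unadjusted p of 0.00132 was the smallest of the members, and the adjusted p was 0.406. EXOSC3, another cap subunit, went the other way, with 251, 191 and 266 in oocytes and 392, 313 and 350.2 in GC and no overlap. Its difference was -0.55 ± 0.30 (adjusted p = 0.529) and had the same sign at each stage.

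EXOSC9, a ring subunit, was higher in oocytes at every stage, with 3715, 3442 and 1921 against 2708, 2025 and 1202 in GC. The difference was 0.63 ± 0.30 (adjusted p = 0.483), and the groups overlap because both compartments had lower signals at later stages. EXOSC10, the nuclear exonuclease bound to the ring, had 1737, 1091 and 382 in oocytes against 604, 779 and 471 in GC. The stage differences were 1.49, 0.47 and -0.29, so the order of the compartments turned at the secondary stage. EXOSC1, the last cap subunit, had 294, 384 and 84.6 and 195, 148 and 122, and EXOSC8 of the ring 372, 237 and 196 and 224, 199 and 207, both with the secondary pair reversed. EXOSC4 and EXOSC6, ring subunits too, had no common direction, and EXOSC6 was detected on PMO, PDG and SECG only.

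Among the others, nucleolin (NCL), one of the most abundant nucleolar proteins, had 351, 489.9 and 469.6 in oocytes against 317, 325 and 679 in GC. The difference of 0.06 ± 0.34 was smaller than its SE. NOL7 was higher in oocytes at each stage, at 382, 211 and 279 against 200.01, 149.6 and 251, with a difference of 0.49 ± 0.32. RRP1, RRP15, NOL8 and NOL3 were not detected on these arrays.

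Without SECO, when the differences rest on the primordial and primary pairs, no member passed either, with a smallest adjusted p of 0.406. The differences of UTP4 (0.91), UTP18 (1.22), GNL2 (0.76), RRP36 (0.68), LAS1L (-0.63), EXOSC3 (-0.63), EXOSC9 (0.61), EXOSC2 (1.59), NHP2 (-0.23) and RRN3 (-0.28) kept their sign. Those of FBL (0.77), NOP2 (1.42), NOP9 (1.61), EXOSC1 (0.91) and EXOSC10 (0.98) were larger and of the same sign. POLR1H turned from -0.14 to 0.46, NOP56 from 0.07 to -0.06 and POLR1C from 0.05 to -0.23. Of the other members tested, GAR1 turned from 0.0008 to -0.36, NOB1 from -0.03 to 0.14, NOL6 from 0.13 to -0.04 and RRP9 from 0.11 to -0.09.

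**Figure D3:**
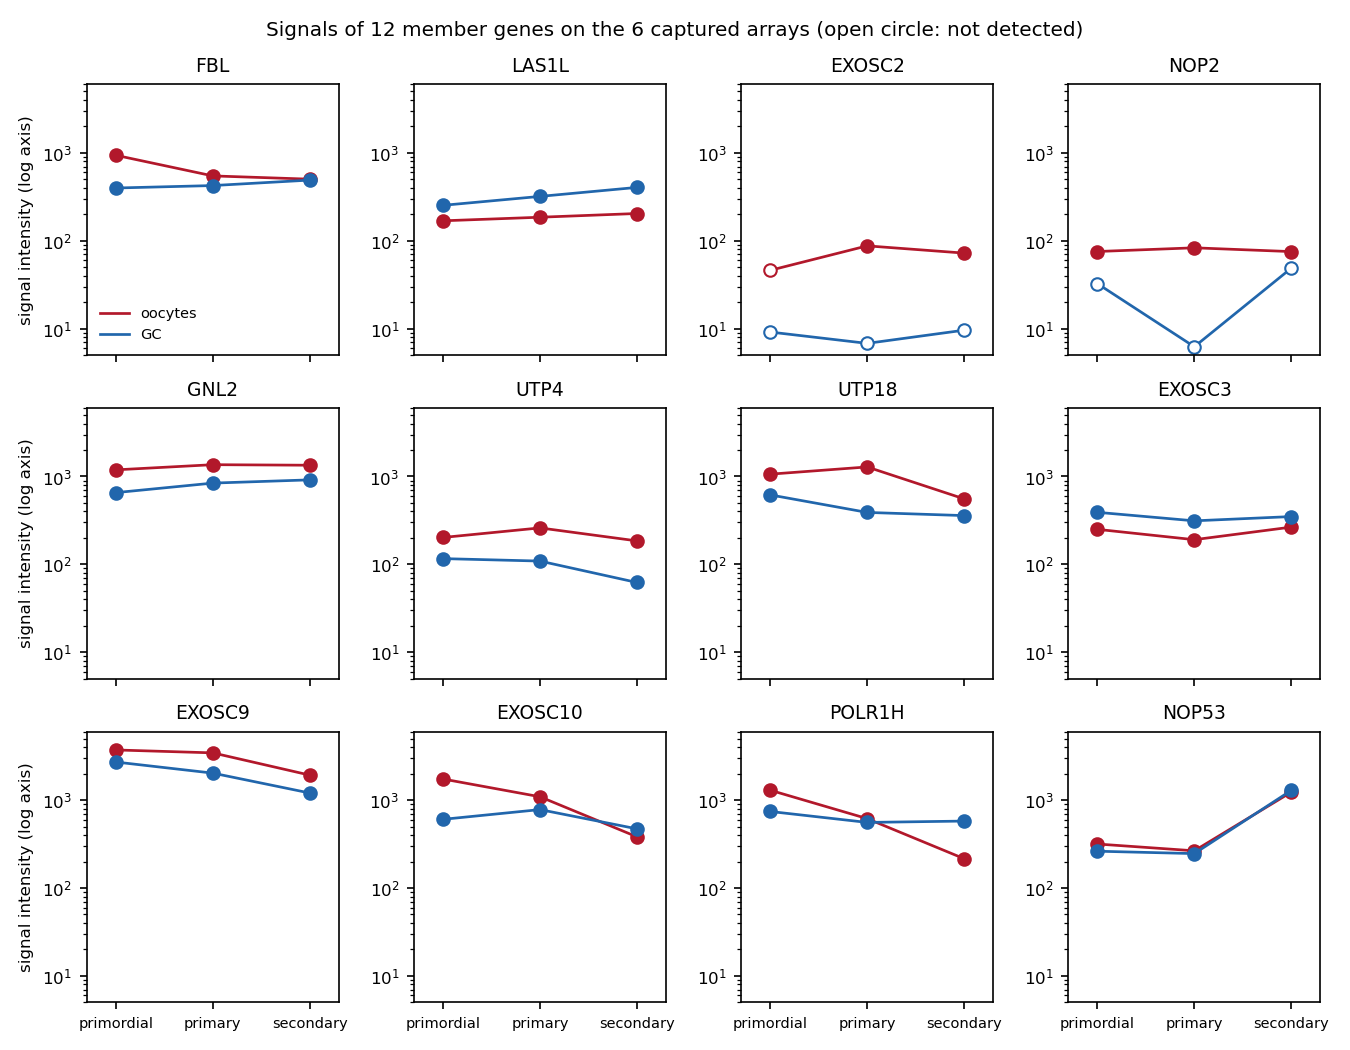
MAS 5.0 signal intensity (log axis) of 12 members in oocytes (red) and GC (blue) at the 3 stages, 1 array a point, with open circles where the gene was not detected. Panels share an axis but signals are compared within a panel only. LAS1L and EXOSC3 are higher in GC throughout, UTP4 and GNL2 in oocytes, and the POLR1H and EXOSC10 lines cross before the secondary stage.

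The second question was which transcripts differ between stages. Secondary and primordial follicles were compared in the same model, with the 2 compartments as replicates, and again 0 probe sets (0%) passed the test. The smallest adjusted p of a member was 0.238, for NOP53, while 5 of 44 members and 1325 (11.4%) of all probe sets were under an unadjusted p of 0.05. Over all 56 members the median difference, secondary minus primordial, was 0.14, against 0.05 for all genes. After quantile normalization it was 0.0512. The median differed with detection, in members and in all genes. For the 28 members detected on all 6 captured arrays it was -0.12, with 11 above 0. All genes so detected had -0.008, with 1580 of 3187 above 0. For the 16 members detected on 1 to 5 arrays it was 0.28, against 0.11 for all genes so detected. For the 12 detected on none it was 0.25, against 0.055. In both compartments 24 members (42.9%, against 31.9% of all genes) had the higher signal at the secondary stage and 12 (21.4%, against 25.8%) the lower. Of the 28 detected on all 6 arrays it was 9 in each direction, and no such count was made for all genes. At least a 2-fold higher signal in both compartments was found for 1 member, NOP53 (1.79%, against 2.95% of all genes), and a 2-fold lower signal for 0 (against 1.41%). In GC alone, without any oocyte array, 7 members were at least 2-fold higher (12.5%, against 9.25%) and 2 lower (3.57%, against 7.22%).

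NOP53, which acts late in large subunit assembly and recruits the helicase of the exosome to the rRNA precursor, gave the largest stage difference. Its signals were 317, 265 and 1232 in primordial, primary and secondary oocytes and 262, 246 and 1291 in GC. Primordial and primary follicles were alike, and both secondary arrays stood above them. The difference was 2.06 ± 0.37 with an adjusted p of 0.238, and 1.90 in oocytes and 2.22 in GC. With a constant of 50 added in place of 20 the adjusted p was 0.0425, and with an intensity trend in the variance 0.0371. Without SECO it was 0.454, at a difference of 2.18. A second probe set of NOP53 was detected on SECG alone and ran the same way, at 15.5, 16.9 and 59.6 in oocytes and 14.3, 3.31 and 50.6 in GC. In whole ovine fetal ovary the first probe set gave 1243, 1167 and 1693 under P1, P2 and P3.

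Among members detected on a captured array, the next upward stage differences were smaller. Those of POLR1G, DKC1, NOP9 and NCL were all larger in GC than in oocytes. NOP9 stood at 0.75 ± 0.50 and NCL at 0.73 ± 0.42, each over 1 in GC (1.32 and 1.05) and under 0.5 in oocytes (0.18 and 0.40). DKC1 was not detected on PDO or PDG, so its secondary signal was at least 1.57-fold the primordial one with PDO and PDG at their limits (adjusted p = 0.549). POLR1G was likewise undetected there (adjusted p = 0.52), but at the secondary stage it was detected on SECG and not on SECO, so no fold is given. By compartment, DKC1 differed by 0.54 in oocytes and 1.25 in GC, and POLR1G by 0.19 and 1.67.

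The 5 largest differences toward lower secondary signals belonged to 3 exosome subunits, POLR1H and TSR1. Of 8 exosome genes, 4 were lower at the secondary stage in both compartments, against 25.8% of all genes, and 1 was higher, against 31.9%. EXOSC9 differed by -1.05 ± 0.37 (adjusted p = 0.364), at -0.94 in oocytes and -1.16 in GC. EXOSC10 differed by -1.24 ± 0.49 (adjusted p = 0.412) and EXOSC1 by -1.09 ± 0.48 (adjusted p = 0.458). In oocytes their differences were -2.13 and -1.59, in GC -0.35 and -0.60, so the larger share lay with the oocyte pair, PDO and SECO. The parts of these 2 arrays in it were not tested. Oocyte minus GC was 1.49 at the primordial and -0.29 at the secondary stage for EXOSC10, and 0.55 and -0.44 for EXOSC1. POLR1H showed the same imbalance, with -2.48 in oocytes, -0.35 in GC and a mean of -1.42 ± 0.54 (adjusted p = 0.392). TSR1, a late factor of the small subunit, was detected on PDO (52.8) and PDG (47.6) only among captured arrays. Its secondary signals of 14.02 and 16.3 lay under limits that exceed the primordial signals, so no fold is given. NHP2 was lower at the secondary stage by a like amount in both, -0.80 and -0.87.

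**Figure D4:**
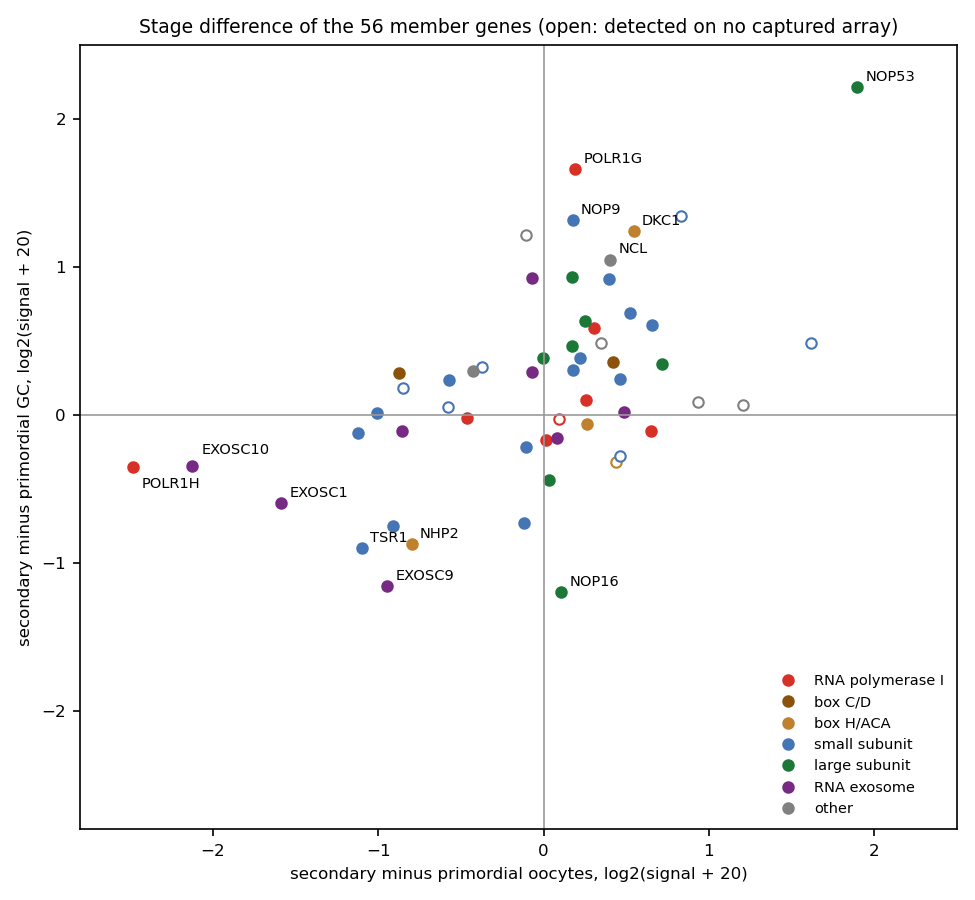
Secondary minus primordial difference in log2(signal + 20) of the 56 genes, in oocytes (horizontal) and GC (vertical), coloured by role and open where no captured array detected the gene. NOP53 lies alone at the upper right, and POLR1H, EXOSC10 and EXOSC1 lie far to the left but near 0 on the vertical axis.

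The fetal ovary arrays addressed how labelling and species change the signals. With 1 array each there is no test. From P1 to P3, the protocol of the captured arrays, 4 members had at least 2-fold lower signals (7.14%, against 14.0% of all genes) and 8 at least 2-fold higher ones (14.3%, against 12.8%). The median was 0.18 for members and 0.02 for all genes. On the low side, EXOSC8 was detected throughout, at 318, 191 and 143 under P1, P2 and P3, which is 2.07-fold higher under P1 than under P3. IMP3, a partner of IMP4 in the early small subunit particle, was 107 under P1 and not detected under P3, at least 2.04-fold lower. EXOSC2 (50.9, 54.3 and 13.3) and RRP15 (44.4, 28.1 and 7.30) were also not detected under P3, and their bounds are only 1.14-fold and 1.03-fold.

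On the high side, EXOSC4 was 104, 189 and 572 under P1, P2 and P3, 4.79-fold higher under P3 than P1. RRP12, an export factor of the small subunit, was 43.7, 139 and 199.7, 3.45-fold higher. RRP7, a small subunit factor, was not detected under P1 and had at least 3.23-fold more signal under P3. EXOSC10 followed at 95.5, 201 and 358, 3.27-fold, and NOP56 at 376, 769.5 and 1156, 2.97-fold. EBNA1BP2, RRP9 and POLR1H also passed 2-fold. FBL, at 1362, 1621 and 1291, and POLR1D, at 919, 1086 and 854, differed little between protocols.

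Under P1 more members were lower than higher with ovine RNA when set against bovine RNA. In ovine RNA 16 members were at least 2-fold lower (28.6%, against 13.9% of all genes) and 6 at least 2-fold higher (10.7%, against 10.5%), and the median was -0.43 against 0.02. Of the 16, 7 were detected with both RNAs, and 4 more, DKC1, NOL8, EXOSC6 and RRP7, passed 2-fold as a bound. The other 5 (GNL3, NOL11, POLR1F, POLR1G and UTP15) were not detected with ovine RNA and have bounds under 2-fold or none. DKC1 was 214 in bovine and undetected in ovine RNA, at least 4.49-fold lower, and NOL8, a nucleolar protein, 183 and at least 3.9-fold lower. UTP25, of the small subunit, was 244 in bovine and 41.7 in ovine RNA, 4.27-fold lower, and NOL11 was not detected with ovine RNA, at least 1.46-fold lower. The 6 in the other direction were detected with both RNAs. UTP18 was 694 in ovine and 213 in bovine RNA, 3.06-fold higher, and POLR1C 181 and 46.8, 3.01-fold. FBL was 1362 and 509, 2.61-fold, and EXOSC9 657 and 261, 2.41-fold. GNL2 and UTP4 completed this group. Species, fetal age and probe match cannot be told apart here.

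**Figure D5:**
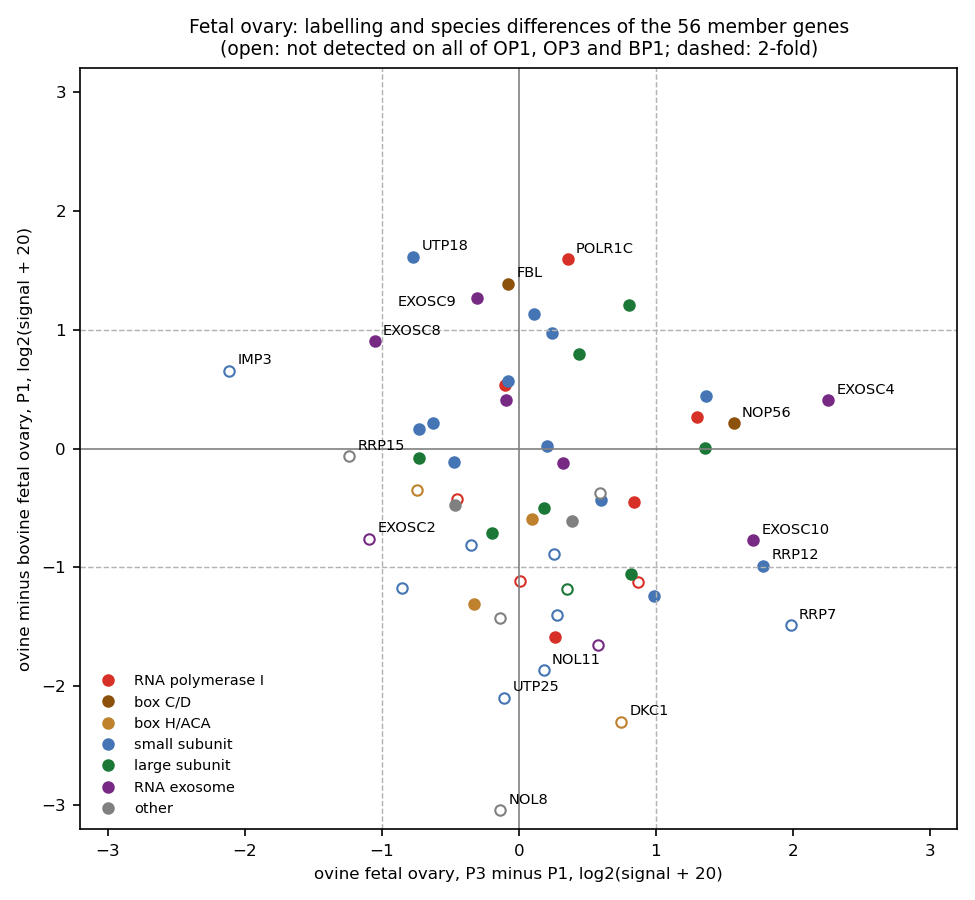
Difference in log2(signal + 20) of the 56 genes between P3 and P1 labelling of ovine fetal ovary (horizontal) and between ovine and bovine fetal ovary under P1 (vertical). Both axes use the ovine P1 array, so the 2 differences are not independent. EXOSC4 and RRP7 lie at the right, IMP3 at the left, and 16 genes lie at or below the lower dashed line of 2-fold.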

How the data were processed

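The authors hybridized 10 Affymetrix Bovine Genome Arrays and deposited MAS 5.0 signal intensities (GCOS, per the labels; versions not given in the sources used here) on a linear scale, scaled so that the mean of an array without its lowest and highest 2% of probe sets is 100. No genome build applies to these values. They also called probe sets present, and only the percentage per array was used here, to set the detection limits. There is 1 array for each of the 10 groups, so no read depth or replicate error exists and the number of arrays limits the precision.

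From the deposited intensities, 112 control probe sets were left out, and 20 was added before taking log2. Of the remaining 24016 probe sets 13292 had 1 gene symbol (9155 symbols), 86 several, from which none was named, and 10638 none. Oocytes and GC, and secondary and primordial follicles, were compared with limma 3.58.1 in R 4.3.3 (stage and compartment as terms, 2 residual and 5.43 prior degrees of freedom, Benjamini-Hochberg adjustment over 11642 probe sets, each detected on 1 or more captured arrays). The script was tested on simulated data, with recovery checked only for changes larger than any member difference. Whether differences of the size seen here would pass was not tested. Python 3.11.15 gave the counts and medians, and matplotlib 3.10.9 the figures. The 2-fold limits use signal + 20, which understates the change of weak signals. A gene not detected in one whole group, but on every array of the brighter group, is given as "at least". That value is the mean of the brighter group over the detection limits (or the higher own signals) of the other.

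The members, the gene lists and the choice of genes to name (FBL, LAS1L and EXOSC2, the largest differences in each direction with one sign, and the brightest members) were chosen with earlier results of these data known. Other members are described to account for all 56, chosen after their values were seen. Alternatives were other constants, a floor, quantile normalization, other filters, an intensity trend, other model terms, leaving out each stage, averaging all probe sets of a gene, other fold minimums and other detection limits, and, chosen after seeing the data, leaving out SECO and, for the stage test, the primary stage. Sequences of probes and transcripts were not used here.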

Additional observations from a re-analysis of the deposited data

How the results depend on the processing

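The 6 captured arrays carry 1 pool of animals each, so the error of every difference rests on 3 stages or 2 compartments, and signals near 50 are close to the detection limits. With an intensity trend in the variance 10 probe sets passed the test of oocytes against GC and 67 that of stage, and with a constant of 50 the stage test passed 37, while 0 members passed for compartment under any setting and NOP53 alone for stage under these 2 settings. Without the primary stage, a fit chosen after seeing the data, 18 probe sets passed the stage test and no member, with a smallest member adjusted p of 0.0775. Leaving out a stage or the SECO array moved the count of members with all oocyte signals above all GC signals from 9 to between 15 and 25 (all genes 16.5% to 22.0%) and the reverse count from 2 to between 3 and 4 (all genes 12.8% to 18.7%), since fewer arrays overlap less often. The highest counts of both came without the secondary stage. The median compartment difference of 0.23 was 0.14 with a constant of 50 and 0.35 without the secondary stage. Leaving out SECO leaves the same pairs and gave the same median. The median stage difference of 0.14 was 0.0512 after quantile normalization, 0.0611 with all probe sets of a gene averaged and 0.21 in GC alone. From P1 to P3 the 4 lower members became 1 with a constant of 50, 10 with a fold minimum of 1.5 and 1 with 3, and the 8 higher ones 14 with a constant of 1, 16 at 1.5-fold, 4 at 3-fold and 4 with the mean of probe sets. Between ovine and bovine RNA the 16 lower members became 9 with a constant of 50 and 6 at 3-fold, and the 6 higher ones 10 at 1.5-fold and 2 at 3-fold. RRN3 turned to 0.0669 with the mean of its probe sets. FBL ranged from 0.19, without the primordial stage, to 0.77. Of the recomputed differences of single genes 103 kept their sign and 1, that of RRN3, did not. Of the counts and medians recomputed, 59 stayed within 1.5 times of the count or within the spread, and 23 moved further. The causes were not tested. No paired analysis was possible because each group has a single array numbered 1, except the pairing of oocytes and GC by stage that the stage term of the model already makes.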
